A study of Homo sapiens with 6 samples.

Results

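Oxidative phosphorylation (OXPHOS) genes were examined as 1 module of the U2OS transcriptome. A row of the count table was a member if its gene was protein-coding and its symbol began with MT-, NDUFA, NDUFC, NDUFS, NDUFV, UQCR, COX4, COX5, COX6, COX7, COX8, SDH or ATP5, or belonged to the NDUFB series with 1 gene left out by the rule. Of 19937 genes in the table, 114 were members: 13 encoded by the mitochondrial genome, 87 classed as nuclear genes of complex I to V subunits, and 14 nuclear genes of assembly factors, a supercomplex factor and an inhibitor. The rule uses symbols and gene type alone, with no measured value in it, although the module was picked with earlier results of these data known.

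The respiratory chain is a series of protein complexes in the inner mitochondrial membrane. Complexes I (NADH dehydrogenase) and II (succinate dehydrogenase) pass electrons to coenzyme Q, complex III (cytochrome bc1) passes them to cytochrome c, and complex IV (cytochrome c oxidase) passes them to oxygen. Complexes I, III and IV pump protons, and complex V (ATP synthase) uses the proton gradient to make ATP. Apart from complex II, which is encoded wholly in the nucleus, each complex joins subunits translated inside the mitochondrion with subunits imported from the cytosol, so the output of both genomes has to be combined.

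U2OS, an established human osteosarcoma cell line, was compared after stable expression of a lentiviral short hairpin RNA against SQLE (shSQLE, 3 libraries) or a scrambled hairpin (shControl, 3 libraries). SQLE encodes squalene epoxidase, an enzyme of cholesterol synthesis, and the comparison asks how the transcriptome differs when it is silenced. Both lines carried the hairpin vector and were kept in puromycin selection during their establishment, the hairpin used for these libraries was not named in the sources used here, and polyadenylated RNA was sequenced. The labels give 3 numbered replicates per group and do not say whether they were separate cultures, so the p-values measure only the spread between these samples, which may be technical.

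Total counts ranged from 12212378 to 14393292 per library. SQLE fell from 1713 ± 317 normalized counts (SD, n = 3) in shControl to 217 ± 12.6 in shSQLE, a log2 fold change of -2.98 (SE 0.17; adjusted p = 0.000299, edgeR). The 9 markers of the mesenchymal and osteoblast lineage had summed raw counts of 43653 to 51309 in shControl and 45249 to 53135 in shSQLE, most of them from VIM (36305 to 46302). None was at 0 in every library, but COL1A2 had at most 6 counts and ALPL 2. Of the 7 tested, 6 lay below 0 (median log2 fold change -0.28), and COL1A1 was called lower (-0.65, adjusted p = 0.0452). Epithelial markers summed to 51 to 79 counts, haematopoietic markers to 3 to 11, endothelial markers to 2 to 16 and the hepatocyte marker ALB to 2 to 6, and 2 of the 3 haematopoietic markers were at 0 in all libraries. Libraries differed within groups. The chi-square statistic per degree of freedom over genes was 53.9 and 63.8 between shControl replicate 1 and the other controls, but 2.83 between shControl replicates 2 and 3. To a smaller extent shSQLE replicate 3 also lay apart, at 9.84 and 15.9 from the other shSQLE libraries, against 3.40 between shSQLE replicates 1 and 2. Values without shControl replicate 1 are given beside most of the members named, and the sets are also given without shSQLE replicate 3. The fit without shControl replicate 1 has only 2 controls. It called 1964 of all 12570 genes tested higher (15.6%) and 2300 lower. When any other single library was left out, no nuclear subunit was called, but those fits called only 4 to 13 of all genes higher.

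Of the 114 members, 105 passed the filter on low counts: all 13 mitochondrial genes, 78 nuclear subunit genes and all 14 assembly and inhibitor genes. The 9 others were at or near 0. COX4I2, COX6A2, COX7A1, COX7B2, COX8C and the readthrough locus NDUFC2-KCTD14 had 0 counts in every library, which allows up to 3 counts per library at this depth (counting error only). COX6B2 reached at most 3 counts, ATP5MGL 1 and the readthrough locus ATP5MF-PTCD1 7. COX4I2, COX6A2, COX6B2, COX7A1, COX7B2 and COX8C are the tissue-restricted partners of broadly expressed complex IV isoforms that were well detected. Thus COX4I1, COX6A1, COX6B1, COX7A2, COX7B and COX8A, the ubiquitous forms, had mean normalized counts of 4086, 1025, 1492, 1954, 2583 and 1275 in shControl.

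Across the module, 1 member passed an adjusted p of 0.05 in edgeR and it was higher in shSQLE (ATP5PB). Among the nuclear subunit genes this was 1 of 78, or 1.28%, against 0.369% of all 12450 genes tested that were called higher. None was called lower, where 2.84% of all genes were called lower. At an unadjusted p under 0.05 there were 7 of 105 members (6.67%), a smaller share than the 14.7% of all genes tested. The nuclear subunits lay mostly above 0, 72 of 78 with a median log2 fold change of 0.16, and the mitochondrial genes mostly just below it, 12 of 13 with a median of -0.03. Over all genes tested, 48.4% lay above 0 and the median was -0.01. These are counts of directions and not of calls: the median SE was 0.21 for the nuclear subunits and 0.15 for the mitochondrial genes, so most single values were smaller than 2 SE.

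**Figure D1:**
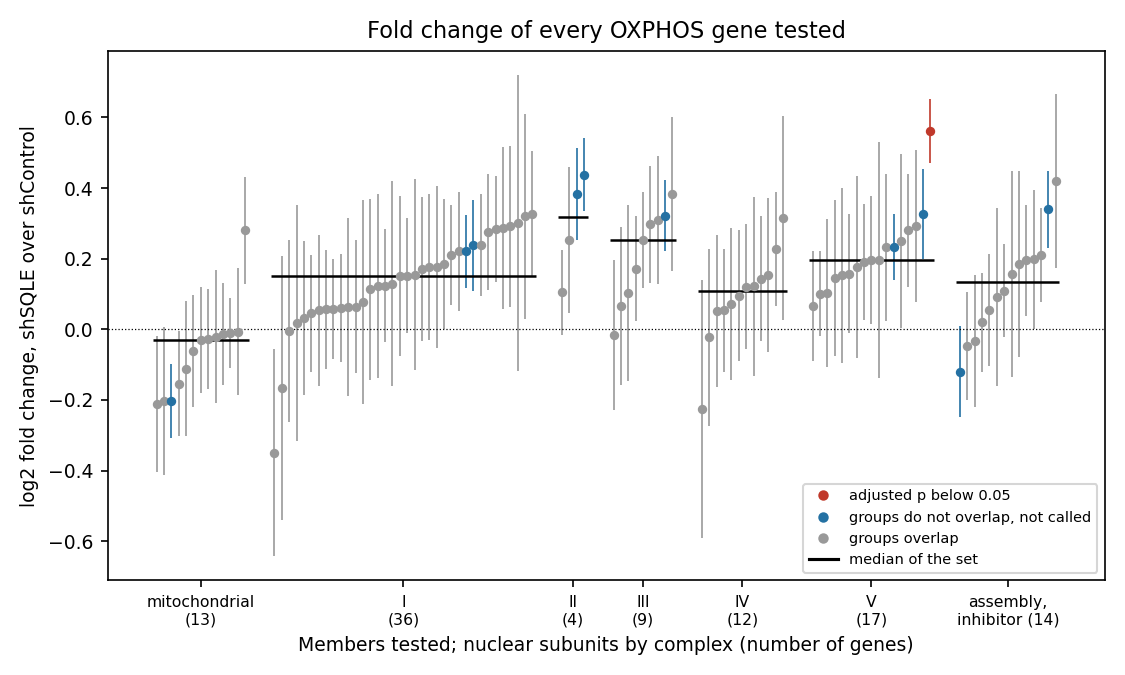
Log2 fold change of shSQLE over shControl (edgeR, vertical axis) for the 105 members tested, with bars of 1 standard error; nuclear subunits are split by complex and horizontal lines are set medians. ATP5PB in complex V stands highest at 0.56, the mitochondrial median is -0.03, and the complex II median of 0.32 is the highest of the 5 complexes.

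ATP5PB encodes the b subunit of the peripheral stalk, which holds the catalytic head of ATP synthase still while the rotor turns. Its normalized counts were 7767, 7604 and 7741 in shControl and 11266, 11805 and 11063 in shSQLE. Every shSQLE library was above every shControl library, and shControl replicate 1 did not stand out here (1.01 times the mean of the other controls). The mean rose 1.48-fold, from 7704 ± 87.2 to 11378 ± 383 (SD, n = 3), a log2 fold change of 0.56 (SE 0.09; adjusted p = 0.0174). It remained past the threshold in all 9 alternatives of scaling, filter, test, block and gene-property correction (adjusted p from 2.62e-06 to 0.0428). With 1 library left out it stayed between 0.54 and 0.60, and was called without shControl replicate 1 (adjusted p = 0.000196) but in none of the other 5 fits, where adjusted p was 0.109 and 0.0696 without shControl replicates 2 and 3, and 0.117, 0.133 and 0.0823 without shSQLE replicates 1, 2 and 3.

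The promoters of ATP5PB and of the nuclear subunit genes with the next lowest p-values, SDHD and UQCRC2, are shown because these members separate the groups most clearly. RefSeq sequence (GRCh38.p14, plus strand for all 3) runs from 250 bases before to 50 bases after the transcription start, and 69 of the 87 nuclear subunit genes had an entry, with 81 promoters in all. Capitals mark exact matches on either strand to AAGATGG (a YY1 core), GCATGCGC (an NRF1 core), CCGGAAG (an ETS core, which GABPA binds) or the palindrome CTCGCGAG, the last chosen after the sequences had been seen.
ATP5PB (chr1:111449214-111449513): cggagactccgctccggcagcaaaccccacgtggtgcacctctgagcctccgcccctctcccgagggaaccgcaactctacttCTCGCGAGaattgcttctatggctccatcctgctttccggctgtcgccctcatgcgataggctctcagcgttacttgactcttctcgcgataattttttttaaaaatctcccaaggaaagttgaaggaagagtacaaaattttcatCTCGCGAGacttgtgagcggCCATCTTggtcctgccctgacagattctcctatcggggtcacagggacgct
SDHD (chr11:112086623-112086922): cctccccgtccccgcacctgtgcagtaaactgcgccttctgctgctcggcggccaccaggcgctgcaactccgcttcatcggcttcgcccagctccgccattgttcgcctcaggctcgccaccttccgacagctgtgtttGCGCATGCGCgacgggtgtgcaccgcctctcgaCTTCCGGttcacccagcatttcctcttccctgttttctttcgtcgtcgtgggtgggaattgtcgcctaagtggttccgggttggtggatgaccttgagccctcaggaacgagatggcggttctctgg
UQCRC2 (chr16:21953111-21953410): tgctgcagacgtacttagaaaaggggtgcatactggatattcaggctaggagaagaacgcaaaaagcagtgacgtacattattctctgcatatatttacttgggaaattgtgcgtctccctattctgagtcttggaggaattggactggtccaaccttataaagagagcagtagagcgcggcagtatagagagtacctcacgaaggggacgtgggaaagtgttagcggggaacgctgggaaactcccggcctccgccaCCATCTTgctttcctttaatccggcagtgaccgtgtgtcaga

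The ATP5PB window held the palindrome CTCGCGAG at 2 positions and the YY1 core once, close to the start, while its window had no exact match to the NRF1 or ETS core. In the SDHD window the NRF1 core was matched on both strands within 1 run of 10 bases and the ETS core once, and UQCRC2 had the YY1 core alone. Over the promoters of nuclear subunit genes, 23.5% held the YY1 core, 18.5% the NRF1 core, 27.2% the ETS core and 2.47% the palindrome. Over all 35116 promoters of the same length the shares were 5.84%, 3.05%, 10.3% and 1.02%. These are matches of letters and not measured binding, and no 1 of the 4 motifs was found in all 3 windows.

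Complex V had 17 nuclear subunits tested, and all 17 fold changes lay above 0, with a median of 0.20 and a range of 0.07 to 0.56. ATP5F1B, the catalytic beta subunit and the most abundant nuclear member per kilobase of transcript, had 14179, 11306 and 10823 normalized counts in shControl and 14766, 16018 and 14752 in shSQLE. The groups did not overlap, but shControl replicate 1 was close to 2 of the shSQLE libraries, and the log2 fold change of 0.33 (SE 0.13) did not pass the test (adjusted p = 0.280). ATP5F1A, the alpha subunit, had 7541, 6838 and 7209 in shControl and 8429, 8478 and 8476 in shSQLE, also without overlap (log2 fold change 0.23, adjusted p = 0.291). ATP5F1C, the gamma subunit of the central shaft, and ATP5MK, a small membrane subunit, were nearest to 0, at 0.10 and 0.07. Without shControl replicate 1, ATP5F1B was at 0.46 (adjusted p = 0.00117) and ATP5F1A at 0.27 (0.0147), while ATP5F1C and ATP5MK, at 0.20 and 0.22, did not pass the test.

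The 3 genes of the membrane rotor's c subunit encode the same mature protein with different import signals. ATP5MC2 was the most abundant of them per kilobase of transcript, at 3654 normalized counts as the mean of both groups, followed by ATP5MC1 at 2557 and ATP5MC3 at 1215. Their log2 fold changes were 0.14, 0.29 and 0.28 with SEs of 0.22, 0.22 and 0.16, and none passed the test. All 3 were called without shControl replicate 1, at 0.44, 0.59 and 0.47 (adjusted p = 0.00991, 0.00116 and 0.00167). That fit called 15.6% of all genes tested higher. Differences between the 3 genes were not tested.

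Complex II consists of 4 nuclear subunits, all 4 of them with a log2 fold change above 0 (median 0.32). SDHD, a membrane anchor, had 871, 799 and 804 normalized counts in shControl and 1088, 1119 and 1144 in shSQLE. SDHB, the iron-sulphur subunit, had 1591, 1316 and 1245 in shControl and 1864, 1906 and 1639 in shSQLE. Both genes were higher in every shSQLE library, at log2 fold changes of 0.44 (SE 0.10; adjusted p = 0.0713) and 0.38 (SE 0.13; adjusted p = 0.213), and neither passed the test. SDHD passed with DESeq2 (adjusted p = 0.00655), with GC content and length taken out (0.00534) and without shControl replicate 1 (0.00129). SDHC, the other anchor, and SDHA, the flavoprotein that oxidizes succinate, were at 0.10 and 0.25 with overlapping groups. With shControl replicate 1 left out, SDHB was at 0.49 (adjusted p = 0.00163) and SDHA at 0.50 (0.00865), and SDHC, at 0.20, was not called. SDHA shares 69.4% of its canonical transcript with other annotated genes, which can lower its count.

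Of the 9 nuclear complex III genes, 8 lay above 0 (median 0.25). UQCRC2, a core structural subunit, had 2371, 2206 and 2230 normalized counts in shControl and 2885, 2994 and 2629 in shSQLE. Its groups did not overlap (log2 fold change 0.32, SE 0.10), with an adjusted p of 0.176. UQCR10, a small subunit, had the highest value at 0.38 (SE 0.22), whereas UQCR11 was at -0.02 and the other core subunit, UQCRC1, at 0.07. UQCRC1 illustrates the part of 1 library: it had 5677 in shControl replicate 1, 3252 and 3219 in the other controls, and 4269, 4623 and 3821 in shSQLE, between the 2 levels. UQCRH, a hinge subunit and the most abundant nuclear complex III gene per kilobase, was at 0.30, and its near copy UQCRHL at 0.31. Reads of such near-identical genes can be divided between them, so UQCRHL is uncertain. Without shControl replicate 1, UQCRC1 was at 0.39 (adjusted p = 0.00564), UQCRC2 at 0.36 (0.00620), UQCR10 at 0.65 (0.00167) and UQCRH at 0.48 (0.00377), all called, whereas UQCR11, at 0.25, and UQCRHL, at 0.39, were not.

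Complex I had the most nuclear subunits, with 36 tested, 33 of them above 0 (median 0.15) and none called. NDUFAB1, the mitochondrial acyl carrier protein that is also a subunit, had the highest fold change at 0.33 (SE 0.18; adjusted p = 0.474), with 1809, 1225 and 1204 in shControl and 1764, 1953 and 1601 in shSQLE. NDUFS6, a zinc-binding subunit and the most abundant complex I nuclear gene per kilobase, was at 0.32 (SE 0.29), with 3092, 1498 and 1506 in shControl and 2501, 3002 and 2099 in shSQLE. In both genes shControl replicate 1 was within or above the range of the shSQLE libraries and the other controls were below them. The next most abundant, NDUFS5, was at 0.18. The groups did not overlap in NDUFA5, which had 858, 1092 and 1118 in shControl and 1189, 1228 and 1203 in shSQLE, and in NDUFA10, which had 2092, 1978 and 1850 in shControl and 2165, 2408 and 2330 in shSQLE. Both are accessory subunits, named here after their values were seen, at 0.24 and 0.22. Without shControl replicate 1, NDUFS6 was at 0.76 (adjusted p = 0.000778), NDUFAB1 at 0.55 (0.00117), NDUFS5 at 0.48 (0.00705) and NDUFA10 at 0.27 (0.0246), all called. NDUFA5, which had its lowest value in shControl replicate 1, was then at 0.13 and not called.

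The lowest values among the nuclear complex I genes came from genes with few counts. NDUFV2, a core iron-sulphur subunit, had 25.4, 52.5 and 44.1 normalized counts in shControl and 28.4, 36.5 and 31.9 in shSQLE. NDUFA13 had 38.1, 30.7 and 16.7 in shControl and 23.5, 34.5 and 17.5 in shSQLE. Their log2 fold changes were -0.35 and -0.17, and -0.58 and 0.08 without shControl replicate 1, with no call in either fit. These core and accessory subunits share 90.0% and 83.9% of their canonical transcripts with other annotated genes, including a noncoding and a readthrough locus, and reads in shared exons may not have been assigned to either gene. Over the nuclear members, the 11 that shared at least 50% of their transcript had a median highest count of 196, against 1751 for the 61 that shared none. Low counts of these genes may therefore not measure low expression.

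In complex IV, 10 of 12 nuclear genes tested lay above 0 (median 0.11), and no pair of groups was separated. COX8A (0.31, SE 0.29) and COX7C (0.23, SE 0.16) were highest, and NDUFA4L2 and COX6B1 lowest at -0.23 and -0.02. COX4I1, the main isoform of the subunit that regulates the oxidase and the most abundant nuclear gene of the complex per kilobase, had 5655, 3331 and 3271 in shControl and 4524, 5068 and 4040 in shSQLE (log2 fold change 0.15, SE 0.22). NDUFA4, now counted as a complex IV subunit, had a mean of 2902 normalized counts in shControl and 3205 in shSQLE. Its paralogue NDUFA4L2, which is known to respond to hypoxia, had 11.6 and 9.97. COX6A1, COX7A2 and COX7B were at 0.05, 0.10 and 0.05. In the fit without shControl replicate 1, COX8A was at 0.74 (adjusted p = 0.00123), COX4I1 at 0.46 (0.00322), COX7C at 0.40 (0.00941) and NDUFA4 at 0.37 (0.00635). COX6A1, COX6B1 and COX7A2 were also called in that fit, at 0.32 to 0.33, and COX7B and NDUFA4L2 were not.

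Among all nuclear subunits, 8 of 78 (10.3%) were higher in every shSQLE library than in every shControl library, close to the background of 10% over all genes tested. None was lower in every shSQLE library, against 12.1% of all genes. The 8 were NDUFA5, NDUFA10, SDHB, SDHD, UQCRC2, ATP5F1A, ATP5F1B and ATP5PB.

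**Figure D2:**
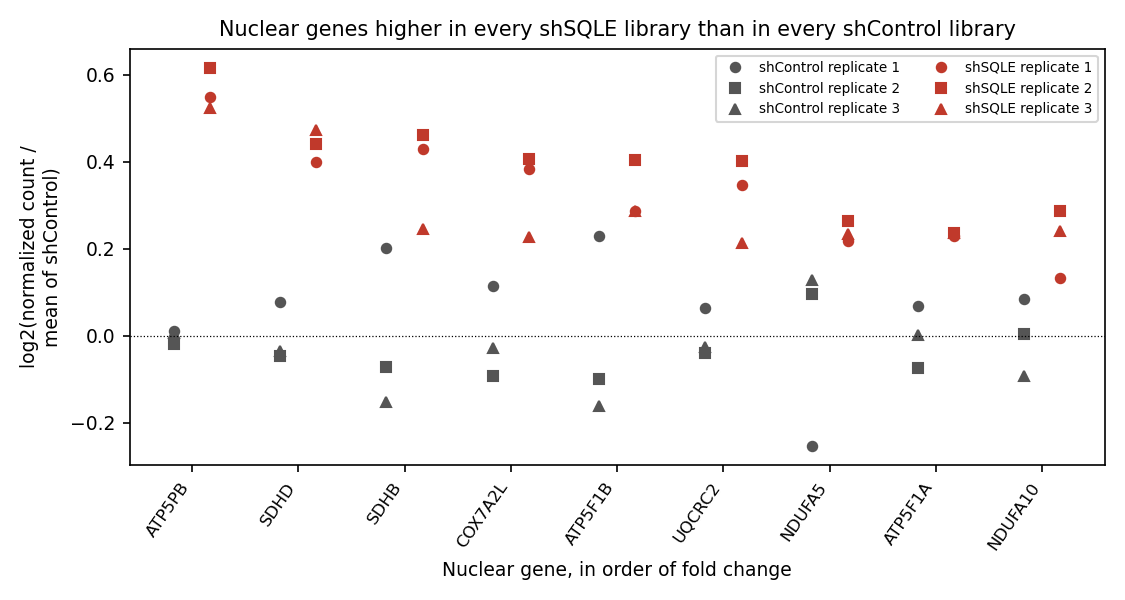
Log2 of each library's normalized count over the shControl mean (vertical axis) for the 9 nuclear members higher in every shSQLE than in every shControl library; grey is shControl, red is shSQLE and symbols are replicate numbers. The 3 ATP5PB controls sit together near 0 and its shSQLE libraries above 0.5, whereas in SDHB, COX7A2L and ATP5F1B shControl replicate 1 is above the other controls.

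The 13 mitochondrial genes cover all the protein-coding genes of that genome, which is transcribed as long precursors from both strands. They took 7.74%, 7.04% and 6.42% of all counts in shControl and 6.86%, 6.64% and 5.76% in shSQLE, and the groups overlapped (means 7.07% ± 0.66 and 6.42% ± 0.58, SD, n = 3). Per kilobase of transcript their median level was 73470 normalized counts, from 14289 for MT-ND5 to 171483 for MT-CO3, compared with a median of 1349 for the nuclear subunits. In bulk libraries, fewer cells of a kind and less RNA per cell cannot be told apart, and neither can fewer mitochondrial genomes and less transcript from each.

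None of the 13 passed the test, and none had an unadjusted p under 0.05. DESeq2 called none either. In 1 of 13 (7.69%), MT-CO1, the groups did not overlap, where 12.1% of all genes were lower in every shSQLE library. MT-CO1 encodes the catalytic core of cytochrome c oxidase. Its normalized counts were 181614, 177661 and 169376 in shControl and 163613, 154619 and 140983 in shSQLE, a log2 fold change of -0.20 (SE 0.10; adjusted p = 0.441) that passed only with GC content and length taken out (-0.24, adjusted p = 0.0277). The other core subunits of complex IV, MT-CO2 and MT-CO3, were at -0.21 (SE 0.19) and -0.06 (SE 0.16). MT-CYB, the mitochondrial subunit of complex III, was at -0.03 with overlapping groups. None of these 4 was called without shControl replicate 1, where MT-CO1 was at -0.18, MT-CO2 at 0.01, MT-CO3 at 0.09 and MT-CYB at 0.09.

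MT-ND6 was the 1 mitochondrial gene with a fold change above 0. It is also the only protein gene on the opposite strand of the mitochondrial genome, and encodes a membrane subunit of complex I. The strand setting of the counting is not given in the sources used here, so reads from the other strand may be among its counts. A link between its strand and its fold change was not tested. It had 20185, 16366 and 23511 normalized counts in shControl and 25291, 26083 and 21567 in shSQLE, with shSQLE replicate 3 below the highest control. The log2 fold change of 0.28 (SE 0.15) did not pass the test (adjusted p = 0.469), nor did the 0.29 without shControl replicate 1. The other membrane subunits of complex I ranged from -0.20 for MT-ND4L to -0.01 for MT-ND3 and MT-ND5, with MT-ND4 at -0.15, MT-ND1 at -0.11 and MT-ND2 at -0.02.

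**Figure D3:**
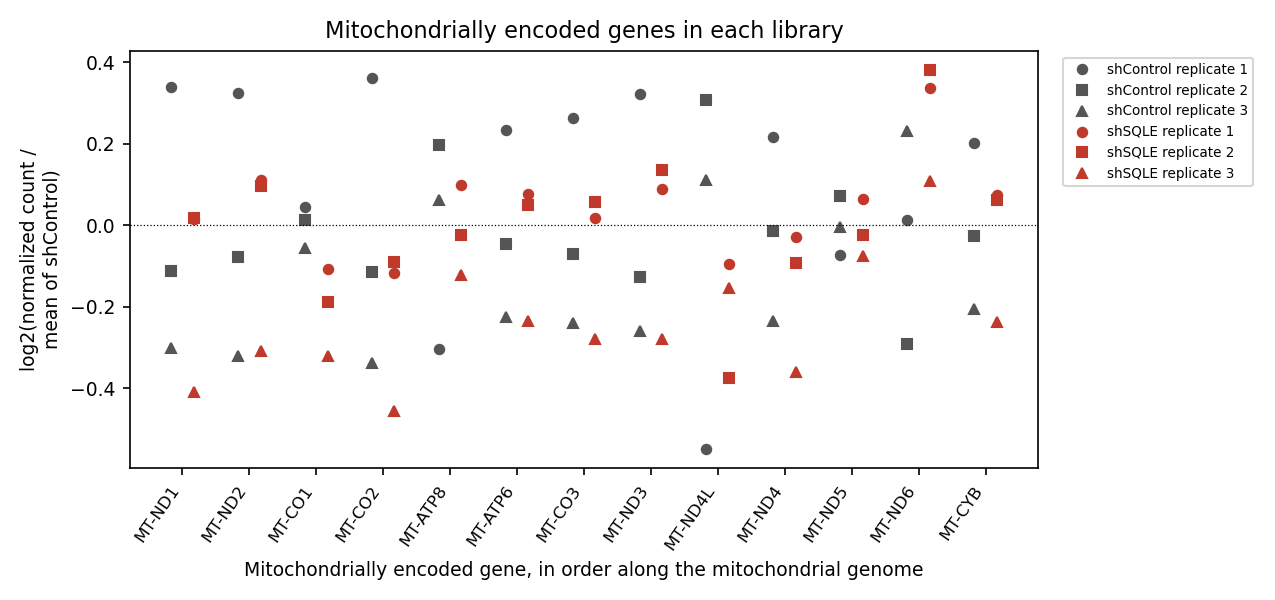
Log2 of each library's normalized count over the shControl mean (vertical axis) for the 13 mitochondrial genes in genome order; grey is shControl, red is shSQLE and symbols are replicate numbers. shControl replicate 1 is highest in 9 genes but lowest in MT-ATP8 and MT-ND4L, and the groups separate only in MT-CO1.

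MT-ATP8 and MT-ND4L, the shortest mitochondrial genes, differed from the others in their pattern over libraries. MT-ND4L had 8030 normalized counts in shControl replicate 1 and 14551 and 12687 in the other controls, and MT-ATP8, a subunit of the membrane part of ATP synthase, had 12371, 17515 and 15946. So both were lowest in the library where 9 other mitochondrial genes were highest. Each runs into the gene after it on the same transcript, and the overlaps are printed because a read inside them belongs to both genes. Capitals mark the shared bases, which begin with the ATG of the second gene and end with the stop codon of the first (hg38, plus strand).
MT-ATP8 and MT-ATP6 (chrM:8497-8602): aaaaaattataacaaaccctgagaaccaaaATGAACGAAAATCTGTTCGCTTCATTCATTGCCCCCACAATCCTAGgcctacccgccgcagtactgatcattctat
MT-ND4L and MT-ND4 (chrM:10730-10796): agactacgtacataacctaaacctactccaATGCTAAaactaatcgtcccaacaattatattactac

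The overlap spans 46 bases, 22.2% of MT-ATP8, in the first pair and 7 bases, 2.4% of MT-ND4L, in the second. With paired reads of 151 bp on genes of 207 and 297 bases, a fragment that starts outside the overlap can still reach the partner gene. How fragments that touch both genes were counted is not given in the sources used here, so the counts of both short genes are uncertain. MT-ATP8 was at -0.01 between groups and its partner MT-ATP6 at -0.03. MT-ND4L was at -0.20 with all libraries (SE 0.21; adjusted p = 0.746) and at -0.41 without shControl replicate 1 (SE 0.10), where it was the 1 mitochondrial gene called (adjusted p = 0.00620). This 1 of 13 was a smaller share than the 2300 of all 12570 genes tested that were called lower in that fit.

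Within each library, counts on mitochondrial genes were compared with counts on nuclear subunit genes, a ratio that no scaling between libraries can change. The mitochondrial genes had 6.57, 7.77 and 7.26 times the counts of the nuclear subunits in shControl and 6.05, 5.55 and 5.48 times in shSQLE. Every shSQLE library was below every shControl library. On the log2 scale the ratio was 2.84 ± 0.12 in shControl and 2.51 ± 0.08 in shSQLE (SD, n = 3), a difference of -0.34 that was not tested. The difference of the sets' median log2 CPM (counts scaled to a fixed library size) was also lower in every shSQLE library (5.48, 5.60 and 5.50 against 5.33, 5.18 and 5.18), by -0.29, and by -0.31 with GC content and length taken out. Leaving out single libraries gave -0.40 to -0.28, the first of these without shControl replicate 1.

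**Figure D4:**
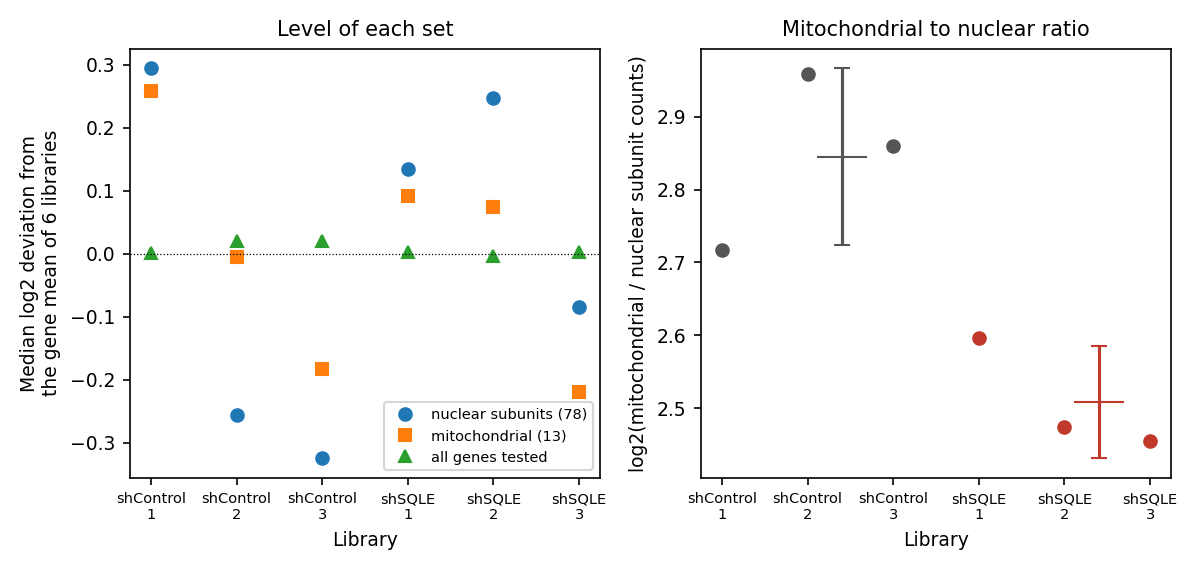
Left, the median log2 deviation of a set's genes from their mean over the 6 libraries (vertical axis) in each library; right, log2 of summed mitochondrial over summed nuclear subunit counts, with group mean and SD. The nuclear median is highest in shControl replicate 1 at 0.29 and lowest in shControl replicate 3 at -0.32, while all 3 shSQLE ratios, 2.60, 2.47 and 2.45, lie below the lowest control, 2.72.

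The 2 sides of this ratio behaved differently over libraries. The nuclear subunits were at a median of 0.29, -0.26 and -0.32 (log2, relative to each gene's mean over the 6 libraries) in shControl replicates 1, 2 and 3 and at 0.13, 0.25 and -0.08 in shSQLE. shControl replicate 1 was the highest of the 6 libraries for 46 of the 78 genes, and shControl replicate 3 the lowest for 58. The mitochondrial genes were at 0.26, 0.00 and -0.18 in shControl and 0.09, 0.07 and -0.22 in shSQLE. Against the mean of the other controls, shControl replicate 1 was higher in 73 of 78 nuclear subunits, with a median of 1.49-fold, and in 10 of 13 mitochondrial genes, with a median of 1.26-fold. shSQLE replicate 3 was the lowest library for 9 of 13 mitochondrial genes. Without it the nuclear median was 0.26 and the mitochondrial median 0.05, no member was called, and the log2 ratio of mitochondrial to nuclear counts differed by -0.31. That fit called only 8 of all genes higher and 101 lower.

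Among the alternatives tried, leaving out shControl replicate 1 changed the number of members called the most. Without it, edgeR called 60 of 78 nuclear subunits higher (76.9%), against 15.6% of all 12570 genes tested in that fit, and 0 lower. The median log2 fold change of the nuclear subunits was 0.39, while that of all genes was -0.01. Fold changes in that fit also went with GC content, with a correlation of 0.31 over all genes. All 5 complexes took part, with 25 of 36 genes called in complex I, 3 of 4 in complex II, 7 of 9 in complex III, 10 of 12 in complex IV and 15 of 17 in complex V. In 64 of the 78 (82.1%), every shSQLE library was above shControl replicates 2 and 3, which held for 28.6% of all 12450 genes; shControl replicate 1 was left out of this count after its values were known. The mitochondrial genes had a median of 0.09 in that fit, with 8 of 13 above 0 and none called higher, and the difference between the 2 sets of genes was not tested. Only 2 controls remain in this fit, and when any other library was left out instead, no nuclear subunit was called. Those other fits called few genes higher at all. Over all genes there were 9 and 13 without shControl replicates 2 and 3, and 4, 5 and 8 without shSQLE replicates 1, 2 and 3.

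How far shControl replicate 1 lay from the other controls went with the base composition of the transcript. Across the 78 nuclear subunits, the log2 difference between it and the mean of the other controls had a Pearson correlation of 0.54 with GC content and -0.38 with log2 transcript length, and across all genes with an annotated transcript 0.72 and -0.55. These are descriptions across genes, which share libraries and are not replicates. The nuclear subunits have short transcripts, with a median of 760.5 bases against 3433 for all genes tested. The median difference was 0.44, 0.66 and 0.90 for nuclear subunits below 45%, from 45% to below 55% and from 55% GC. For all genes in these classes it was -0.47, 0.00 and 0.49. Leaving out shControl replicate 1 did not remove the GC trend. The log2 fold change of that fit had a correlation with GC content of 0.31 over all genes and 0.25 over the nuclear subunits. Its medians in the 3 classes were 0.36, 0.44 and 0.53 for nuclear subunits and -0.18, 0.02 and 0.18 for all genes. The classes were not matched for transcript length, and what sets the nuclear subunits apart in them was not tested.

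**Figure D5:**
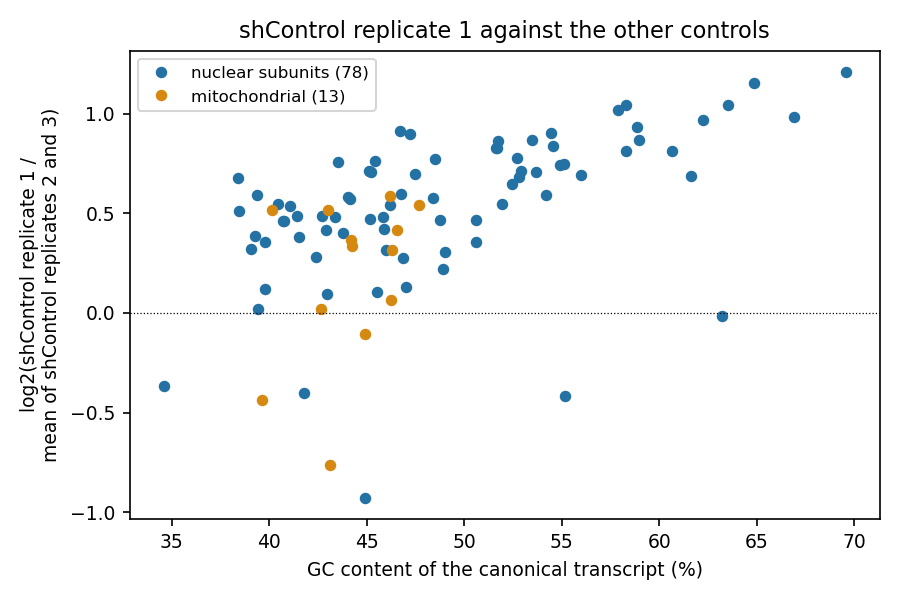
Log2 of shControl replicate 1 over the mean of shControl replicates 2 and 3 (vertical axis) against GC content of the canonical transcript in percent, for 78 nuclear subunits and 13 mitochondrial genes. Most nuclear subunits lie above 0 and rise with GC content, with a Pearson correlation across genes of 0.54.

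With smooth GC content and length offsets in each library, edgeR called 19 of 78 nuclear subunits higher (24.4%), against 12.1% of all genes tested, and the median was 0.15 where that of all genes was 0.06. These 19 were 8 genes of complex I, 2 of complex II, 3 of complex III, 1 of complex IV and 5 of complex V. The part of GC content, length and shControl replicate 1 in the difference between groups was not tested beyond these fits.

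The 14 assembly and inhibitor genes matched by the rule had a median log2 fold change of 0.13, 11 lay above 0 and none was called by edgeR or DESeq2, with 1 at an unadjusted p under 0.05 (COX7A2L). COX7A2L, which joins complexes III and IV into supercomplexes, had 1887, 1636 and 1711 normalized counts in shControl and 2274, 2310 and 2042 in shSQLE, without overlap (log2 fold change 0.34, SE 0.11; adjusted p = 0.183; 0.40 and 0.00377 without shControl replicate 1). ATP5IF1, the inhibitor that stops ATP synthase from running in reverse, was at -0.03 with overlapping groups, and at 0.17 without shControl replicate 1, with no call. In that fit 5 of the 14 (35.7%) were called higher, against 15.6% of all genes. With GC content and length offsets 1 of 14 (7.14%) was called, below the 12.1% of all genes.

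Genes outside the rule that supply or build the chain were followed as fixed lists. Of 9 electron carriers, all tested, 1 was called higher, where 0.369% of all genes tested were: ETFDH, the flavoprotein that passes electrons from fatty acid and amino acid oxidation to coenzyme Q. It had 211, 222 and 213 normalized counts in shControl and 355, 327 and 325 in shSQLE, with no overlap (log2 fold change 0.64, SE 0.12; adjusted p = 0.0322). That call was lost with library size only (0.0520), with the replicate number as a block (0.0767) and without any single library other than shControl replicate 1 (0.116 to 0.203). The median of the list was 0.20, and GPD2, the mitochondrial glycerol-phosphate dehydrogenase, was lowest at -0.12. In the fit without shControl replicate 1, 5 of the 9 were called higher and 1 lower, with a median of 0.29. With GC content and length offsets 3 were called higher and 0 lower. Over all genes tested these fits called 15.6% and 12.1% higher. Cytochrome c itself (CYCS), the mobile carrier between complexes III and IV, had 8322 and 8734 normalized counts (log2 fold change 0.07).

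No gene of the other 5 lists was called in edgeR, and 6 of their 119 genes tested (5.04%) had an unadjusted p under 0.05, against 14.7% of all genes. DESeq2 called 1 of them, the complex V assembly factor ATPAF1 (log2 fold change 0.44, adjusted p = 0.0157 with DESeq2), named here after its value was seen. Of 44 further assembly factors, 33 lay above 0, with a median of 0.10, from SCO2, a copper chaperone of complex IV, at -0.38 to UQCC3, a complex III factor, at 0.50. In the fit without shControl replicate 1, 18 of these 44 were called higher and 0 lower, with a median of 0.27. With GC content and length offsets 8 were called higher and 1 lower. These 2 fits called 15.6% and 12.1% of all genes tested higher. The 12 genes of coenzyme Q synthesis that were tested had a median of 0.02, from COQ10B at -0.28 to COQ3, a methyltransferase of the pathway, at 0.40. Genes of mitochondrial transcription and mtDNA maintenance (28 tested) had a median of 0.09, from the thymidine kinase TK2 at -0.45 to MTERF3 at 0.32. Of genes for mitochondrial mRNA stability and translation, 22 were tested with a median of 0.04, from TACO1, a translational activator of MT-CO1, at -0.13 to the elongation factor TUFM at 0.29. The 13 nuclear regulators tested had a median of 0.03. NRF1 and GABPA, whose binding cores were searched for above, were the highest and the lowest of these, at 0.18 (SE 0.13) and -0.33 (SE 0.24), and neither passed the test. YY1, whose core was searched for too, was at -0.01 (SE 0.13; adjusted p = 0.991, edgeR). In these last 4 lists, in the order given, the fit without shControl replicate 1 called 1, 3, 3 and 1 genes higher. It called 1, 2, 0 and 2 lower. Of all 12570 genes tested, that fit called 15.6% higher and 2300 genes lower, so calls in these lists were not particular to them.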

How the data were processed

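Per the study's methods and the labels, reads from poly(A)-selected libraries (151 bp paired-end) were trimmed with fastp 0.20.0, aligned to hg38 with STAR 2.7.9a and assigned to genes with featureCounts 2.0 by the authors. The deposited table holds unnormalized counts in 6 columns, 1 per sample; strand and multi-overlap settings are not given in the sources used here. Symbols, transcript lengths, GC content and overlaps came from GENCODE release 44, in which 19905 of 19937 identifiers were found. Lengths and GC content refer to the canonical transcript.

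Genes were filtered with filterByExpr (12450 kept), scaled by TMM and tested with the edgeR 4.0.16 quasi-likelihood test (group alone; R 4.3.3), with Benjamini-Hochberg adjustment over all genes tested and a threshold of 0.05. Normalized counts are counts divided by the effective library size, at the mean effective size. The log2 CPM values used a prior count of 2. Fold changes are shSQLE over shControl. The design was written with this test as the main one and DESeq2 1.42.0 as an alternative. On simulated counts for 12450 genes in this comparison, 100% of genes changed by a log2 of 2 and 85.7% of those changed by 1 were called, and 4.66% of calls were false. The self-test had no GC or length trend.

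The members, lists and tests were chosen with earlier results of these data known. Genes were named by rule: SQLE, all mitochondrial genes, nuclear members past the threshold, the 2 lowest, 2 highest and 2 most abundant per complex, isoform pairs, members that failed the filter, and the extremes and calls of each list. NDUFA5, NDUFA10, ATP5F1A, COX7A2L, CYCS, ATP5IF1, ATPAF1 and YY1 were named after their values were seen. Alternatives were other scaling, filters, DESeq2, the replicate number as a block, GC content and length offsets (mgcv 1.9.3), and each library left out. Same-numbered libraries did not all deviate together (correlations 0.14, -0.43 and 0.54 for replicates 1, 2 and 3). The unlike-numbered shControl replicate 1 and shSQLE replicate 2 also reached 0.54. The numbers were therefore not used to pair samples in the main fit. Intervals and floors cover counting error only.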

Additional observations from a re-analysis of the deposited data

How the results depend on the processing

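All medians of the mitochondrial, nuclear and assembly sets moved by less than the spread between libraries in every alternative. That spread includes shControl replicate 1, so it is a wide measure and does not show that the medians were stable. Without that library the nuclear median went from 0.16 to 0.39 and the nuclear calls from 1 to 60. The mitochondrial median changed sign, from -0.03 to 0.09, without shControl replicate 1 and to 0.05 without shSQLE replicate 3. With DESeq2, 2 nuclear subunits were called higher, and over all genes 162 were called higher and 568 lower. With GC content and length offsets, the calls were 19 nuclear subunits higher, 1 mitochondrial gene lower, 1 assembly or inhibitor gene higher, 20 genes of the context lists higher and 1 lower, and 1504 of all genes higher and 1079 lower. The context lists had 0 calls higher with library size only and 0 with the replicate block, and 2 with DESeq2. The replicate block changed no call of a member (the nuclear subunit called was 1 gene under the block too). Taking counts on nuclear subunits as the denominator moved the log2 share of mitochondrial counts from -0.14 to -0.34.

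Leaving out 1 library gave 0 to 60 nuclear subunits higher, 0 to 5 assembly or inhibitor genes higher, 0 to 1 mitochondrial gene lower, 0 to 31 context genes higher and 0 to 6 lower, and over all genes 4 to 1964 higher and 101 to 2300 lower, the highest of each without shControl replicate 1. The cause was not tested.

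Some fold changes near 0 changed sign. Under the replicate block COX6B1 was at 0.025, UQCR11 at 0.0090 and MT-ND3 at 0.0040. With GC content and length offsets GPD2 was at 0.030. MT-ATP8 was at 4.76e-05 with RLE size factors and 3.82e-05 with DESeq2, MT-ND5 at 0.0017 with both, and MT-ND3 at 0.0041 with both and at 0.0026 with upper-quartile factors. Across the fits without 1 library, the ranges were -0.0077 to 0.22 for ATP5MK, -0.081 to 0.33 for COX6A1, -0.18 to 0.33 for COX6B1, -0.0016 to 0.32 for COX7A2, -0.048 to 0.23 for COX7B, -0.34 to 0.058 for GPD2, -0.12 to 0.10 for MT-ATP6, -0.14 to 0.097 for MT-ATP8, -0.34 to 0.011 for MT-CO2, -0.16 to 0.092 for MT-CO3, -0.11 to 0.086 for MT-CYB, -0.23 to 0.094 for MT-ND1, -0.15 to 0.17 for MT-ND2, -0.11 to 0.19 for MT-ND3, -0.048 to 0.038 for MT-ND5, -0.46 to 0.078 for NDUFA13, -0.24 to 0.088 for TACO1, -0.13 to 0.25 for UQCR11 and -0.069 to 0.39 for UQCRC1. With 3 libraries per group and a median SE of 0.18 among members, changes well under 1 on the log2 scale could be missed.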
